A study of Mus musculus with 4 samples.

Results

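Mitochondria make ATP with a chain of protein complexes in their inner membrane. Complex I takes electrons from NADH, complex III passes them from coenzyme Q to cytochrome c, and complex IV hands them to oxygen. The protons moved on the way drive complex V, the ATP synthase, whose F1 head makes ATP while a ring of c subunits turns in the membrane. Most subunits are encoded in the nucleus, and a few core subunits of complexes I, III, IV and V are encoded in mitochondrial DNA. Tumor cells often rely on glycolysis, but many keep a working respiratory chain.

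The genes described here were the protein-coding rows whose symbols name subunits of complexes I, III, IV and V. The rule took symbols that start with Ndufa, b, c, s or v and a digit, Ndufab1, symbols that start with Uqcr, Cyc1, symbols that start with Cox4 to Cox8 and symbols that start with Atp5. It left out Ndufa4l2, Atp5s and Atp5sl by name, and matched 80 of 23875 genes in the table, of which 20674 were protein-coding. Complex I had 37 members, complex III had 9, complex IV had 18 and complex V had 16. Mitochondrially encoded subunits were also within the rule, and 0 of the 80 members came from the mitochondrial genome, so nuclear against mitochondrial genes was not analysed here. The rule sorts by symbol. Ndufa4, which carries a complex I name and is now known as a subunit of complex IV, was therefore counted with complex I.

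RNA came from ID8 cells, ovarian surface epithelial cells of C57BL/6 mice that were transformed in culture. ID8-P0 was the parental line, which carried GFP and luciferase, and ID8-PW2 was a line grown out of peritoneal wall tumors after 2 passages through mice. Each line gave 2 libraries, all from cells kept in suspension for 24 h on plates to which they could not attach. ID8-PW2 is 1 line, so variation between separately passaged tumors was not measured, and its libraries were sequenced on lanes 4 and 8 while both ID8-P0 libraries were on lane 3.

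The level of a gene was the authors' mean over all 4 libraries, in CPM, the share of a library's reads that a gene takes, scaled up to a common total. The columns that hold values of single libraries carry names that no sample label uses, so they were assigned to no line. The levels below therefore describe both lines together, without an SD, and no difference between ID8-PW2 and ID8-P0 was tested. Depth per library is not given here for the same reason. Longer transcripts give more fragments, so levels of different genes were set against each other on CPM per kb of transcript, and plain CPM was used for sums and for ranks that are named as such, with transcript lengths from GENCODE release M21. The spread between libraries was taken from the authors' edgeR dispersion, whose square root is the biological coefficient of variation (BCV), in percent of a gene's level. Of the markers of ovarian surface epithelium and mesothelium, 9 of 9 were at 1 CPM or more, with 2515 CPM summed. Krt19 was the highest of them with 938 CPM, while Krt7 and Muc16 were low, with 1.91 and 1.95 CPM. Of the leukocyte markers 2 of 7 reached 1 CPM, with 16.7 CPM summed over the list, and of the endothelial markers 1 of 4. Both adipocyte markers and the erythroid marker stayed below 1 CPM. Fibroblast markers reached 1 CPM in 3 of 5 cases, and Dcn (decorin) alone had 320 CPM while Lum (lumican) was at the lowest level in the table.

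Nearly the whole set of nuclear subunits was transcribed in these cells, and most of it strongly. Of the 80 members, 73 had a mean of at least 1 CPM. The median of these 73 was 37.9 CPM per kb, beside 6.41 CPM per kb for 11563 protein-coding genes at 1 CPM or more with a known length. Over all exons of each gene the medians were 20.3 and 4.08 CPM per kb. In this ranking of protein-coding genes, 70 of the 73 members lay above the median and 41 (56.2%) were among the top 10%, which began at 32.7 CPM per kb. The 80 members together held 3713 CPM, or 0.371% of all counts. A single non-coding gene, Gm26924, held 30.0% of all counts, and the members held 0.531% of the rest. Complex V had 1392 CPM, complex I had 1166 CPM, complex IV had 654 CPM and complex III had 502 CPM.

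Complexes differed in the typical level of their genes. The median was 27.6 CPM per kb in complex I, 46.1 CPM per kb in complex III, 76.8 CPM per kb in complex IV and 69.4 CPM per kb in complex V. The middle part of each range, from its lower to its upper quartile, ran from 21.1 to 45.5 CPM per kb in complex I and from 32.3 to 69.4 CPM per kb in complex III. It ran from 37.0 to 136 CPM per kb in complex IV and from 37.9 to 93.3 CPM per kb in complex V. These ranges overlapped, and the order of the medians rests on the transcript chosen for each gene: over all exons of each gene, complex V (20.4 CPM per kb) fell close to complex I (18.0 CPM per kb), while complexes III and IV had 33.3 and 33.4 CPM per kb. Counted with complex IV, where its protein sits, Ndufa4 moved the median of that complex to 87.2 CPM per kb.

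**Figure D1:**
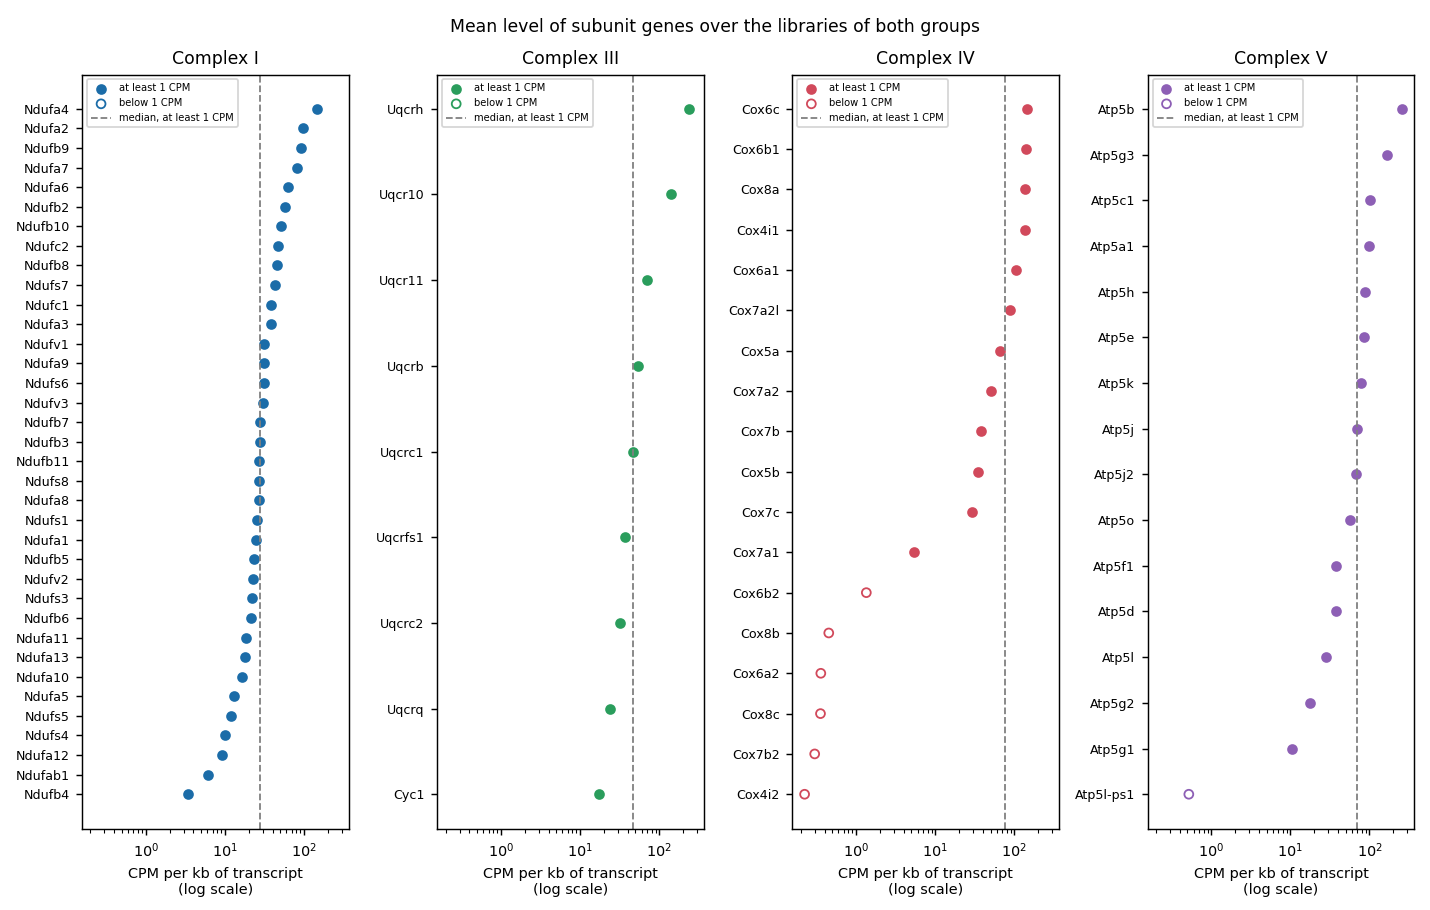
Mean level of the subunit genes over the 4 libraries, in CPM per kb of transcript on a log axis, in 1 panel per complex. Filled points are genes at 1 CPM or more, open points are genes below it, and dashed lines are the medians of all members at 1 CPM or more; the 7 open points are 6 complex IV isoforms and Atp5l-ps1, and complex I spans 3.41 to 144 CPM per kb.

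In complex V, the F1 head was the most abundant section. Atp5b, the catalytic beta subunit, had 498 CPM with a BCV of 6.45%, which placed it 99th among protein-coding genes by CPM, and its 260 CPM per kb was the highest value of any member. Atp5a1, the alpha subunit that alternates with beta in the head, had 244 CPM and 98.6 CPM per kb. Alpha and beta subunits stand in the head in equal number, while the transcript level of Atp5b was 2.63 times that of Atp5a1 per kb, or 1.51 times over all exons. Of the central stalk genes, Atp5c1 (gamma) had 101 CPM per kb, Atp5e (epsilon) 85.0 CPM per kb and Atp5d (delta) 37.8 CPM per kb. Each of these is present once in the enzyme. The 4 genes of the peripheral stalk, which holds the head still, lay between 38.0 CPM per kb (Atp5f1, subunit b) and 88.1 CPM per kb (Atp5h, subunit d). The membrane subunits Atp5k (e), Atp5j2 (f) and Atp5l (g) had 79.1, 68.3 and 28.2 CPM per kb.

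The c ring is encoded by 3 genes that yield the same mature protein and differ in their targeting sequences. Atp5g3 carried most of the c ring transcripts, with 117 CPM and 164 CPM per kb. Atp5g2 had 13.0 CPM and 17.8 CPM per kb, and Atp5g1 had 6.22 CPM and 10.4 CPM per kb. The BCVs of Atp5g3, Atp5g2 and Atp5g1 were 7.45%, 9.69% and 12.5%. They describe each gene between libraries and are not the error of a ratio between genes. Per kb, Atp5g3 was 9.22 times as abundant as Atp5g2 and 15.7 times as abundant as Atp5g1. The ratio to Atp5g1 was 123 with its longest principal transcript and 42.5 over all exons. Both low genes have processed copies elsewhere in the genome: 87.4% of the 50-base windows of the Atp5g2 transcript and 66.0% of those of Atp5g1 also occurred in other genes, and none of those of Atp5g3 did. Reads were aligned with up to 100 places kept for each, and how a read with several places was counted is not given in the sources used here, so the levels of Atp5g1 and Atp5g2 are uncertain.

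Complex IV showed the sharpest split among its members, between the isoforms used in most tissues and those known from particular organs. The usual isoforms were all abundant, with Cox6b1 at 139, Cox8a at 137, Cox4i1 at 136, Cox6a1 at 106, Cox7a2 at 51.3 and Cox7b at 37.6 CPM per kb. Of the 7 isoforms of restricted tissues, 6 had a mean below 1 CPM over both lines together. Such a mean does not show whether a gene lay above 1 CPM in 1 of the lines. Cox6a2 and Cox8b, the forms of heart and skeletal muscle, had 0.244 CPM and 0.163 CPM. Cox6b2, Cox7b2 and Cox8c, known from testis, had 0.746, 0.163 and 0.163 CPM, and Cox4i2, the form of lung, had 0.163 CPM. The value of 0.163 CPM was the lowest in the table, shared by 4561 genes, so Cox4i2, Cox7b2, Cox8b and Cox8c were not detectable at this depth. No fold is given against them.

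The exception was Cox7a1, the muscle and heart partner of Cox7a2. It had 2.10 CPM and 5.35 CPM per kb, with a BCV of 20.7%, which was 1.06 times the median of genes of its own level. Cox7a2 was 9.60 times as abundant per kb. The remaining complex IV genes ranged from 29.0 CPM per kb (Cox7c) to 144 CPM per kb (Cox6c), with Cox5a at 66.4 and Cox5b at 35.0 CPM per kb. Cox7a2l, whose protein joins complexes III and IV in supercomplexes, had 87.2 CPM per kb.

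The promoters of Cox8a and Cox8b are shown because these genes encode the same subunit and lay at opposite ends of the range, and that of Atp5b because it was the most abundant member. Each run covers 250 bases before the RefSeq start site and 50 bases from it onward in GRCm38.p6, and capitals mark CG pairs, the sites of DNA methylation. They numbered 18 in Atp5b, 19 in Cox8a and 2 in Cox8b, beside a median of 19 in 64 member promoters and 16 in 14691 promoters of protein-coding genes. Among genes at 1 CPM or more the medians were 19 for members and 21 for protein-coding genes.
Atp5b (chr10:128083057-128083356, plus strand): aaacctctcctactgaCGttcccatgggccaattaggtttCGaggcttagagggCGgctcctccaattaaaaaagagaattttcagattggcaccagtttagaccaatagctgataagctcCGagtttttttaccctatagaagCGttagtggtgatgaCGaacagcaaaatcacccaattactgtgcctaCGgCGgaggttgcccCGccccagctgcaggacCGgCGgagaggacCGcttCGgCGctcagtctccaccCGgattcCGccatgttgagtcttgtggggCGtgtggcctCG
Cox8a (chr19:7217567-7217866, minus strand): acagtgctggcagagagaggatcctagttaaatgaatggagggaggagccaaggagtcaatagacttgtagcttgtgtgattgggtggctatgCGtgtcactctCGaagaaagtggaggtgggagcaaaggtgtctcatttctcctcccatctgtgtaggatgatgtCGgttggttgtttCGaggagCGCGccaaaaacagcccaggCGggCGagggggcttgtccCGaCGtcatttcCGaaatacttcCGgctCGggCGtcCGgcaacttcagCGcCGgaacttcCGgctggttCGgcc
Cox8b (chr7:140900397-140900696, minus strand): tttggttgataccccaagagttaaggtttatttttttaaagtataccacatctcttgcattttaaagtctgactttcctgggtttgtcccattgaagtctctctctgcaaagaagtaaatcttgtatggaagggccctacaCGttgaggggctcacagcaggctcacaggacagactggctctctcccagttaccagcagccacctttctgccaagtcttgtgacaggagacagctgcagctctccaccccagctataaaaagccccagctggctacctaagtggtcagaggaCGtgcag

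Complex III was led by 2 of its small subunits. Uqcrh, the acidic hinge protein near cytochrome c1, had 130 CPM and 238 CPM per kb with a BCV of 6.05%, and Uqcr10 had 140 CPM per kb. The median of the 5 small subunits was 69.4 CPM per kb. The 4 larger subunits were lower and closer together, with a median of 34.9 CPM per kb. Uqcrc1 and Uqcrc2, the core proteins, had 46.1 and 32.3 CPM per kb, Uqcrfs1, the Rieske iron-sulfur protein, had 37.5 CPM per kb, and Cyc1, cytochrome c1, had 17.2 CPM per kb. The transcript level of Uqcrh was therefore 13.8 times that of Cyc1 per kb, or 8.66 times over all exons, although both proteins belong to the same complex.

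In complex I, the core genes did not stand above the others. The 7 nuclear core subunits, which hold the flavin and the iron-sulfur clusters, had a median of 26.9 CPM per kb, and the other 30 members had 27.8 CPM per kb. The lowest core gene was Ndufs3, with 22.1 CPM per kb. Ndufv1 and Ndufv2, the NADH-binding pair, had 31.5 and 22.4 CPM per kb. The other genes with a complex I symbol spanned 42.2-fold, or 28.3-fold without Ndufa4, the complex IV subunit, which had 144 CPM per kb. Highest after it were Ndufa2 at 96.3 and Ndufb9 at 91.9 CPM per kb. Lowest were Ndufb4 at 3.41, Ndufab1 at 6.12, Ndufa12 at 9.08 and Ndufs4 at 10.1 CPM per kb. Ndufab1 is the mitochondrial acyl carrier protein, which also serves fatty acid synthesis.

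The BCV was small for most members. The median BCV of the 73 members at 1 CPM or more was 7.90%, with a range of 6.01% (Cox4i1) to 21.8% (Ndufb4), and 58 of them (79.5%) were under 10%. Of all genes at 1 CPM or more 51.6% were under 10%, with a median of 9.77%. BCV fell with level: across the 73 members BCV and log2 CPM had a Spearman correlation of -0.88 (across all 12214 genes, -0.95). These are correlations across genes that share the same libraries. Each member was therefore set beside genes within 0.25 log2 units of its own level. The median ratio of its BCV to theirs was 1.02, with 39 members above 1 and 34 at or below it. With edgeR, a gene's dispersion can be drawn toward that of genes of like level, and whether this was done is not given here. The ratios, and the fall of BCV with level, may therefore not measure the replicate spread of single genes alone. The ratio ran from 0.866 (Atp5g1) to 1.36 (Ndufa5 and Uqcrb). In 10 members it was 1.2 or more: Ndufa1, Ndufa4, Ndufa5, Ndufa12, Ndufb4, Ndufb5, Ndufb8, Ndufs3, Ndufs5 and Uqcrb. Of these 10, 9 belonged to complex I by symbol, as did 37 of the 73. At least 10% of the 50-base windows were shared with other genes in 7 of the 10, and in 31 of the 73. Over all members at 1 CPM or more, the 31 that shared at least 10% of their sequence with other genes (in windows of 50 bases) had a median ratio of 0.988 with 15 above 1, and the 28 that shared none had 1.04 with 17 above 1.

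**Figure D2:**
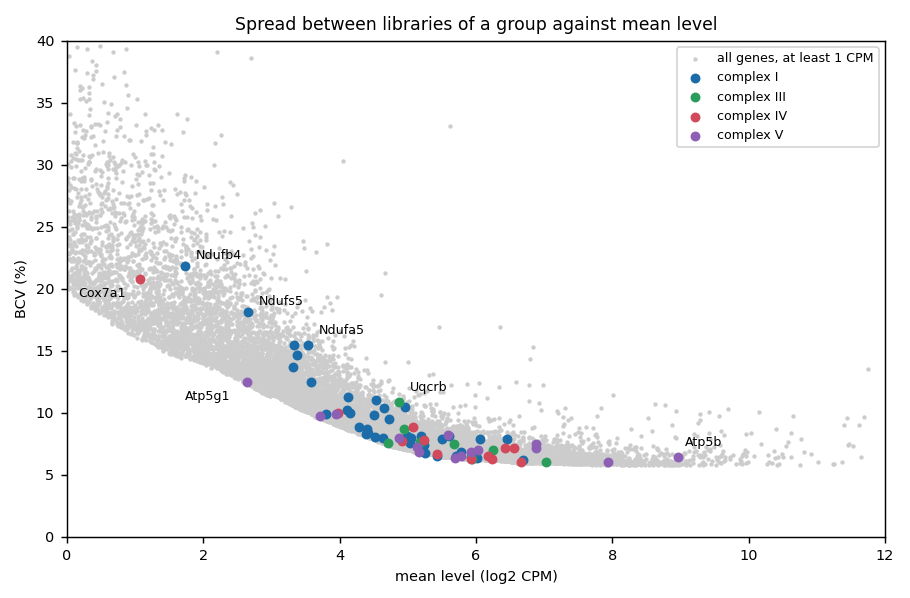
BCV in percent against mean level in log2 CPM for genes at 1 CPM or more, with the 73 members colored by complex over all 12214 genes in grey. The members follow the band of other genes of their level, from Ndufb4 with 21.8% down to Cox4i1 with 6.01%, and 52 grey genes lie outside the axes.

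Many subunit genes have retrocopies, and the sequence that members share with other genes was measured in GENCODE M21 transcripts. The measure took any other gene entry on either strand, so it is not a measure of retrocopies alone. Uqcrc2, for example, shared 24.8% of its windows with Pdzd9, which overlaps it on the opposite strand, and none with a pseudogene. The leading sharer of Atp5o was a second entry of the same name. A median of 3.28% of a member's 50-base windows also occurred in another gene. No window was shared by 33 of the 80 members, 32 shared at least 10%, and 34 shared windows with an annotated pseudogene. The highest shares were in complex V, with Atp5g2 at 87.4%, Atp5l at 84.8%, Atp5g1 at 66.0%, Atp5h at 50.5% and Atp5o at 50.3%. Cox7c had 53.0%. Atp5l-ps1, a pseudogene by its symbol that the table lists as protein-coding, had 55.1% and lay at the lowest level in the table. Among members at 1 CPM or more, the 28 that shared no window had a median of 37.6 CPM per kb and the 31 that shared at least 10% had 32.3 CPM per kb. The 14 in between had the highest median, 73.7 CPM per kb. High sharing thus went with low level in some genes, such as Ndufb4 (37.0% shared) and Ndufs5 (41.2% shared, 12.0 CPM per kb), and not in others, such as Atp5h. Without the members that shared at least 10%, the complex medians were 31.4, 41.8, 51.3 and 91.8 CPM per kb for I, III, IV and V.

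**Figure D3:**
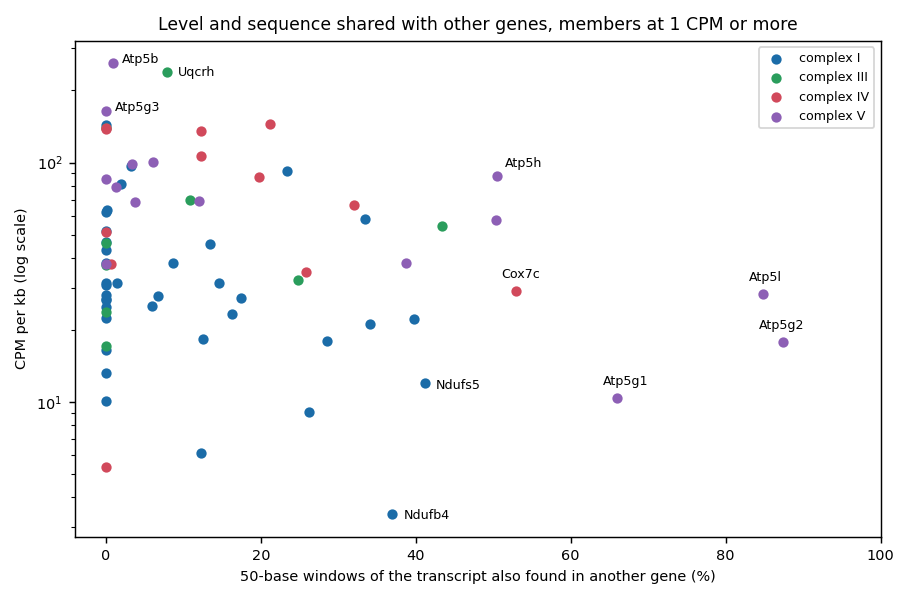
Mean level in CPM per kb on a log axis against the percent of a transcript's 50-base windows found in another gene, for the 73 members at 1 CPM or more, colored by complex. Atp5g2, Atp5l and Atp5g1 lie at the right with 10.4 to 28.2 CPM per kb, while the most abundant members, Atp5b and Uqcrh, share 0.857% and 7.83%.

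Most other lists of genes of oxidative phosphorylation had lower medians than the subunits, with exceptions. The 4 genes of complex II, which feeds electrons from succinate, had a median of 24.97 CPM per kb, close to complex I. Over all exons the median of complex II was 21.4 CPM per kb, beside 20.3 for all members and 18.0 for complex I. Complex II was thus not below the subunits on that measure. Assembly factors were lower, with 13 of 13 for complex I at 1 CPM or more and a median of 5.05 CPM per kb, and 24 of 26 for complexes III, IV and V with 6.71 CPM per kb. The electron carriers and the enzymes of coenzyme Q synthesis had 5.41 CPM per kb in 16 of 17 genes. In contrast, the carriers that exchange ADP, ATP and phosphate, the porins and related genes had 71.8 CPM per kb in 8 of 11 genes. Vdac1, the main porin of the outer membrane, reached 273 CPM per kb, and Atpif1, the inhibitor protein of the ATP synthase, had 135 CPM per kb. Regulators of mitochondrial biogenesis had 3.79 CPM per kb in 11 of 12 genes, and genes of mitochondrial DNA replication and transcription had 4.53 CPM per kb in 13 of 14.

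A common feature of the members that levels did not enter was a close neighbour on the opposite strand. Only pairs that point away from each other were counted, and pairs whose 5′ ends overlap were left out. Of the 80 members, 17 (21.2%) had the 5′ end of such a neighbour within 500 bases, beside 7.74% of all protein-coding genes. Among genes at 1 CPM or more the shares were 23.3% of members and 11.7% of protein-coding genes. Complex I held 11 of the 17, complex III held 3, complex V held 2 and complex IV held 1. The closest pair was Ndufs1 with Eef1b2, a translation elongation factor gene, at 3 bases. Next was Ndufa7 with the ribosomal protein gene Rps28 at 29 bases. Other pairs were Ndufa8 with Morn5 at 52 bases, Ndufb3 with Fam126b at 61 bases, Ndufb9 with Tatdn1 at 80 bases, Atp5c1 with Kin at 83 bases and Uqcrh with Lrrc41 at 198 bases. These pairs are a description of gene positions in the table, and no test was made. The members lay on many chromosomes, with the most, 10, on chromosome 7, of which 6 were at 1 CPM or more. Chromosome 7 also held the most protein-coding genes (8.67%), and chromosome 17 likewise had 6 members at 1 CPM or more. By their coordinates 8 members overlapped another row on the same strand, among them Ndufb8 with Gm20538 and Ndufa13 with Yjefn3, and 16 overlapped one on the opposite strand. Reads were counted by strand, so the levels of the 8 are the less certain.

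The promoters were searched for the letters of factors known to control respiratory genes. RefSeq promoters were matched for 64 of the 80 members. NRF1, GABP and the ERR receptors are known activators of nuclear respiratory genes, YY1 is a zinc finger factor with targets among them, and HIF acts in low oxygen. Nrf1 had 12.4, Gabpa 10.5, Yy1 7.05 and Esrra 6.86 CPM per kb, while Esrrg, another ERR receptor gene, was below 1 CPM with 0.183 CPM. Genes of HIF were not in the lists examined. The letters CGCATGCG (NRF1) were in 8 of 64 member promoters (12.5%), beside 2.82% of 14691 promoters of protein-coding genes and 4.20% of 8734 at 1 CPM or more. AAGGTCA (ERR) was in 7 (10.9%), beside 3.76% and 2.91%. AAGATGG (YY1) was in 9 (14.1%), beside 6.68% and 7.58%. For CCGGAAG (GABP and other ETS factors) the share was 13 of 64 (20.3%), beside 13.0% of all and 19.4% of those at 1 CPM or more, and for ACGTG (HIF) it was 15 of 64 (23.4%), beside 21.9% and 25.9%. TATAAA, the letters of the TATA box, was in 7 (10.9%), beside 11.7% of all. Among promoters of genes at 1 CPM or more it was in 5 of 61 members (8.20%), beside 6.43%. Matches at any position in the promoter were counted. All were searched on both strands, and none of these words contains another. A match is a description of letters and shows no binding.

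The matches were spread unevenly over the complexes. The YY1 letters were in 7 of 33 promoters of complex I, 1 of 13 of complex IV, 1 of 13 of complex V and none of the 5 of complex III. The ERR letters were in 4 of 13 promoters of complex V (Atp5e, Atp5g3, Atp5k and Atp5l), in 3 of 33 of complex I and in none of the 18 of complexes III and IV. The NRF1 letters were in 3 of 13 promoters of complex V, 2 of 5 of complex III, 1 of 13 of complex IV and 2 of 33 of complex I. At least 1 of the NRF1, ETS and YY1 words was in 26 of 64 promoters (40.6%), beside 20.7% of all and 28.3% of those at 1 CPM or more.

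**Figure D4:**
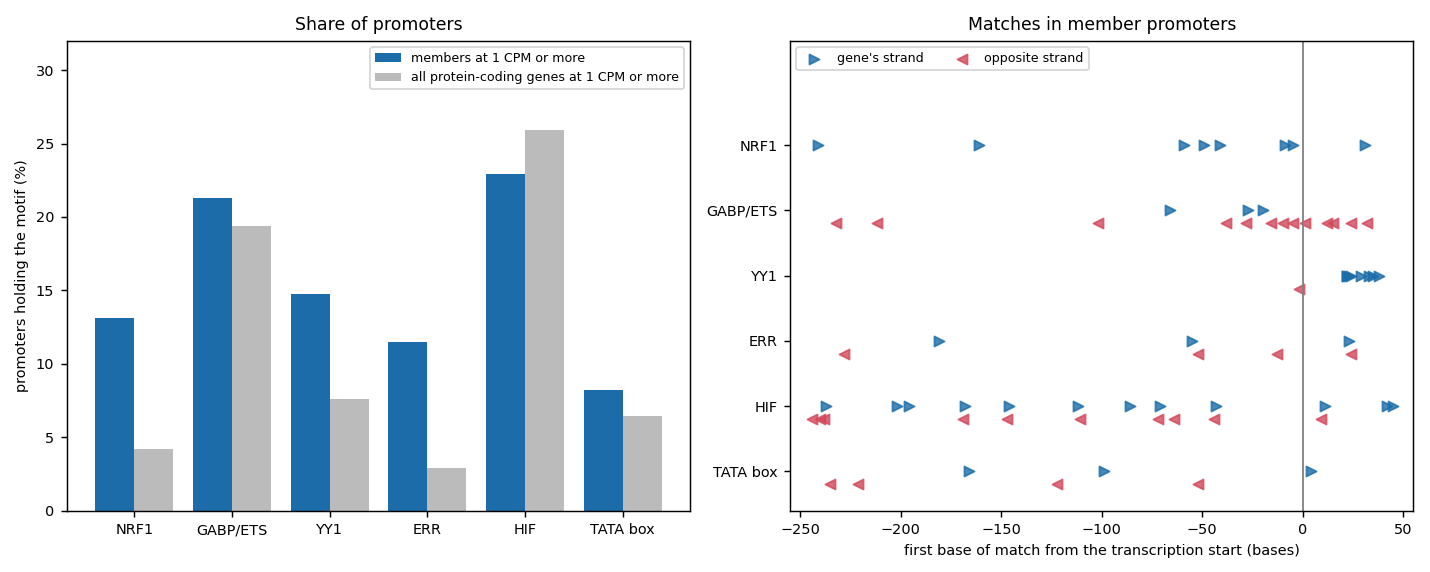
Left, percent of promoters that hold each motif's letters in members (blue) and in all protein-coding genes (grey), both at 1 CPM or more. Right, position of each match in member promoters in bases from the transcription start, pointing right on the gene's strand and left on the opposite one (NRF1 reads the same on both); the YY1 matches stand together, with 8 of 9 on the gene's strand from 22 to 38 bases after the start.

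Atp5k and Uqcr11 are shown for promoters that held several of these words. Capitals mark the NRF1 word, the ETS word on either strand (CTTCCGG on the opposite one) and, in Atp5k, the ERR word. In Atp5k the NRF1 word began 49 bases before the start site, the ETS word 12 bases after it and the ERR word 23 bases after it. In Uqcr11 the ETS word began 66 bases and the NRF1 word 5 bases before the start site.
Atp5k (chr5:108434350-108434649, minus strand): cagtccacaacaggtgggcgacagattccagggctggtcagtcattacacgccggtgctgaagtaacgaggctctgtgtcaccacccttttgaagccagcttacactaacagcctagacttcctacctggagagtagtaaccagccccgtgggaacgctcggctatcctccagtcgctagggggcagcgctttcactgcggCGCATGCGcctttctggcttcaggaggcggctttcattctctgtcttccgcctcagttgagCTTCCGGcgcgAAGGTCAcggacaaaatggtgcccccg
Uqcr11 (chr10:80406772-80407071, minus strand): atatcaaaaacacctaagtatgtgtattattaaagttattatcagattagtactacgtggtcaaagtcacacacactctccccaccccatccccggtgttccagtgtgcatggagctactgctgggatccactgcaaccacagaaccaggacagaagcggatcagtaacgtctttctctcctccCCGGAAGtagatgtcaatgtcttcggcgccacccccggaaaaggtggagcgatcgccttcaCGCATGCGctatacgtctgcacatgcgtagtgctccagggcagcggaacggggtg

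The YY1 word lay within a narrow range in most of the members that held it. In 8 of the 9 it lay on the gene's strand between 22 and 38 bases after the start site, and in Cox7c it lay on the opposite strand at the start site. Among all 1032 matches in promoters of protein-coding genes, 16.7% lay on the gene's strand from 20 to 45 bases after the start. For genes at 1 CPM or more it was 20.3% of 709 matches. That window takes in the members' own range, so the shares are a description and no test. The word contains ATG, and in 8 of these 8 members that ATG was an annotated start codon in GENCODE M21. The share was 31.2% of 612 matches on the gene's strand in all protein-coding genes and 36.4% of 439 at 1 CPM or more. Those matches lay anywhere in the promoter, and only 172 of the 612 and 144 of the 439 lay from 20 to 45 bases after the start. The share within that range was not computed, so the 8 members are not set beside matches at like positions. In the 8 members other than Cox7c, the base after the word was c, and how often c follows the word in other promoters was not counted. The 9 sites are shown in 30 bases each, on the gene's strand, with the word in capitals.
Ndufa3 (chr7:3617383-3617412, plus strand): gccgccaagaacAAGATGGccgggagtaag
Ndufa9 (chr6:126849098-126849127, minus strand): gcattgtgggagAAGATGGcggccgccgtc
Ndufb8 (chr19:44555393-44555422, minus strand): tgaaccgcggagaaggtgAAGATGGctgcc
Ndufc1 (chr3:51408916-51408945, minus strand): agcctgcggaacAAGATGGcgccgtccgta
Ndufs4 (chr13:114388045-114388074, minus strand): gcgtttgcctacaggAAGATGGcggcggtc
Ndufs6 (chr13:73328433-73328462, minus strand): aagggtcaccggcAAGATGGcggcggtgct
Ndufs7 (chr10:80249461-80249490, plus strand): aaggccgaggccAAGATGGcggcgctggcg
Atp5j2 (chr5:145191501-145191530, minus strand): caccaggacttcAAGATGGcgtcactcggt
Cox7c (chr13:86046780-86046809, minus strand): ctgttgtaactcCCATCTTccctttcggtc
These 9 genes were not alike in level. Atp5j2 had 68.3 CPM per kb and Ndufs4 had 10.1 CPM per kb, and the others lay between 29.0 and 45.5 CPM per kb.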

How the data were processed

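RNA over 200 nt from 2 libraries per line was sequenced. Per the paper and the submitters' notes, the authors used CASAVA 1.8.2, Trimmomatic 0.22, TopHat2 2.0.6, Bowtie2 2.0.2, strand-specific counting by their own script and edgeR 3.20.8. The notes name a human build, while identifiers and chromosomes are mouse. The log2 CPM is the authors' mean over all libraries, as deposited, and the dispersion is a score per gene that the authors made with edgeR. The 4 count columns match no label and were used in no step, so depth per library is not given, and the planned edgeR comparison could not be fitted. The authors' fold change, p-value, FDR and call columns were not used. The own values of 1 of the 80 members are left out of the text and of the plot of levels. CPM is 2 to the power of log2 CPM. Genes at 1 CPM or more counted as expressed.

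Transcript lengths came from GENCODE M21, taking transcripts paired with curated RefSeq entries, then principal ones, a rule chosen after seeing the data. All 80 identifiers were in M21. Promoters are RefSeq's (GRCm38.p6). For genes with several, the one nearest to the table's 5′ end was used. Members and lists were chosen with earlier results of these data known, and the subgroups of complexes III, IV and V and all motif letters were set after the files were read. Named genes were the 2 most abundant members per complex and the isoform pairs, and all others were named as extremes or as cases of a count, after their values were seen. The scripts that count shared windows, neighbours and motifs were tested on simulated data. Python 3.11.15, numpy 2.4.6, pandas 2.3.3 and matplotlib 3.10.9 were used.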

Additional observations from a re-analysis of the deposited data

How the results depend on the processing

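All alternatives below were chosen after seeing the data. With the longest principal transcript the complex medians were 26.7, 46.1, 76.8 and 68.3 CPM per kb for I, III, IV and V, while the ratio of Atp5g3 to Atp5g1 went from 15.7 to 123. Over all exons they were 18.0, 33.3, 33.4 and 20.4 CPM per kb in the same order, and without members that shared at least 10% of windows they were 31.4, 41.8, 51.3 and 91.8 CPM per kb. With Ndufa4, complex IV had 87.2 CPM per kb. Without the most abundant non-coding gene, the members' share was 0.531%. The causes are the lengths, members and totals used. Counts of expressed members, divergent neighbours, shared windows and motif promoters stayed within 1.5 times. Other choices of normalization, filter, test, threshold and left-out libraries, set down earlier, need values per library and were not run. No paired analysis was possible because the columns carry no sample or duplicate number that matches a label. Depth per library is unknown here, and it limits the genes at the lowest level.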
